A study of Rattus norvegicus with 138 samples.

Results

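The comparison was between rats with depleted uranium (DU) pellets and rats with tantalum (Ta) pellets in the later part of a metal implant study. Its members were the 15 serum small RNA libraries labelled DU or Ta at 6 mo or 12 mo after implantation, out of 66 libraries of these times and 72 libraries of earlier times. There were 4 DU libraries at 6 mo, 4 DU libraries at 12 mo, 3 Ta libraries at 6 mo and 4 Ta libraries at 12 mo. All animals were male Sprague-Dawley rats, 3 mo old at surgery. Each carried 4 pellets of 1 metal, 2 in the gastrocnemius (calf) muscle of either hind limb, every pellet 1 mm across and 2 mm long. Depleted uranium is a dense, weakly radioactive heavy metal used in munitions, and tantalum is an inert metal that serves as the control for the surgery itself. DU and Ta rats therefore shared the operation, the strain, the sex and the presence of a metal body in the muscle, and differed in the metal. The series also had implants of aluminium (Al), lead (Pb), copper (Cu), iron (Fe), tungsten (W), cobalt (Co) and nickel (Ni). The series text gives 8 rats per group, bled at every time, and the labels do not tie a library to a rat. The p-values below therefore measure the spread between libraries, which may be partly technical. Libraries of the same metal at 6 mo and 12 mo may come from the same rats, and the fits treated them as independent.

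Circulating miRNAs are short regulatory RNAs released into blood inside vesicles or bound to proteins by blood cells, liver, vessel wall and other tissues. A miRNA pairs with messenger RNAs mainly through its seed, the stretch from base 2 to base 8, and lowers their translation and stability. miRNAs with the same seed form a family with overlapping targets. In serum a lower level can mean fewer cells of a source tissue or less release per cell, and these cannot be told apart. Uranium that dissolves from a pellet is known to collect in kidney and bone, so lists of kidney and of bone and cartilage miRNAs were followed beside lists for muscle, liver, blood cells, inflammation and DNA damage.

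The mature sequences of the miRNAs that the results turn on are shown here so that shared seeds can be seen. They come from RefSeq (assembly GRCr8), run 5′ to 3′, and carry the seed in capitals. The first set is the let-7 family, miRNAs that promote differentiation and are abundant in blood.
let-7g-5p: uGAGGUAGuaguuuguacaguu
let-7a-5p: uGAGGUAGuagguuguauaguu
let-7f-5p: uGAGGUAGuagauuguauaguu
let-7i-5p: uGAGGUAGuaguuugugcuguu
let-7d-5p: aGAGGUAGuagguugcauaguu
let-7b-5p: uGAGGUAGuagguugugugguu
All 9 family members in the count table (let-7a, b, c, d, e, f, g and i and miR-98-5p) had this seed, and pairs of them differed at 1 to 6 of 22 bases. At its closest let-7g-5p differed from another member at 2 bases, so reads of 1 member could have been counted to another. The second set had other seeds and contains the miRNAs that stood against let-7g-5p, together with 5 that were at 0 in all libraries of at least 1 of the 4 groups. Only miR-34a-5p and miR-34c-5p in it share a seed.
miR-423-5p: uGAGGGGCagagagcgagacuuuu
miR-140-3p: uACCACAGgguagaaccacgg
miR-191a-5p: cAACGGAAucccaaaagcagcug
miR-6328: aGGCCUGCucugagcccccgc
miR-503-5p: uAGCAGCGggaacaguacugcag
miR-139-5p: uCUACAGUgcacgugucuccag
miR-34c-5p: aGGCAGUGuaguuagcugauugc
miR-34a-5p: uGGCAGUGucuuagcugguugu
In all, 70 of 74 miRNAs looked up were matched by name to the RefSeq table.

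Depth differed widely between libraries. The DU libraries held 507140 to 6406599 counts at 6 mo and 159861 to 1078901 at 12 mo, and the Ta libraries 720097 to 1354321 at 6 mo and 351094 to 1168200 at 12 mo. miRNAs with at least 1 count averaged 124 ± 50.5 in DU and 196 ± 27.5 in Ta at 6 mo (SD, n = 4 and 3), and 191 ± 27.1 in DU and 166 ± 39.9 in Ta at 12 mo (SD, n = 4 each). The 2 DU libraries of 6 mo with the fewest, replicates 3 and 4, detected 86 and 77 miRNAs, fewer than any Ta library of either month. By exact two-sided permutation tests, neither the log10 total nor the number detected passed the threshold between DU and Ta (adjusted p = 0.457 to 0.886 over a family of 12 tests). Within 6 mo there are 35 permutations and within 12 mo 70, so few that the threshold was nearly out of reach. These tests therefore do not show that depth or detection was equal. miR-191a-5p, an abundant miRNA of blood cells and platelets, took the largest share of counts over the 15 libraries, 18.2% on average, followed by miR-10a-5p with 14.7% and the liver miRNA miR-122-5p with 9.82%.

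**Figure D1:**
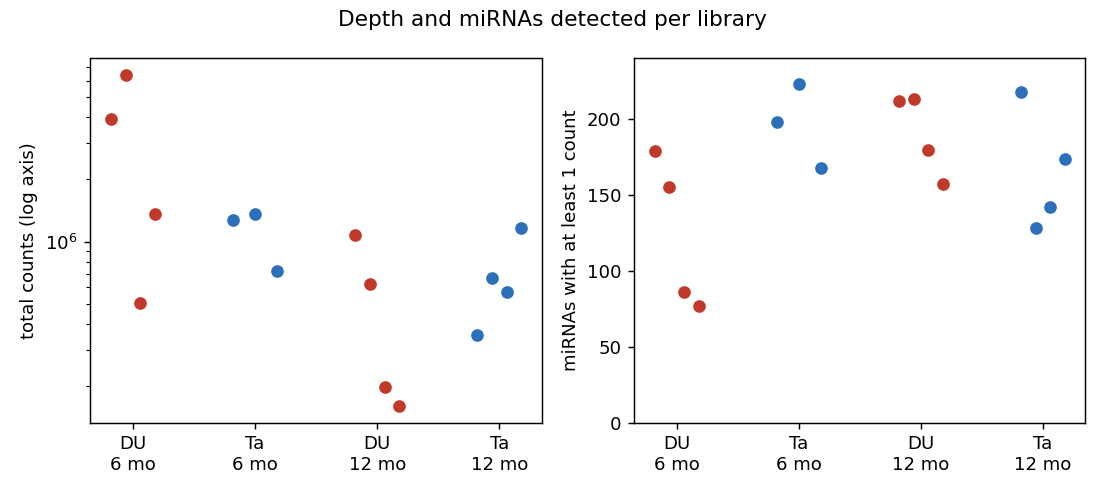
Total counts (log axis) and the number of miRNAs with at least 1 count in each of the 15 libraries, with DU in red left of Ta in blue for each month. DU replicates 3 and 4 of 6 mo lie lowest in the right panel, at 86 and 77 miRNAs.

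Some differences between DU and Ta had opposite signs in the 2 months. In group means let-7g-5p was above Ta in the DU sera at 6 mo and below Ta at 12 mo, and miR-423-5p and miR-140-3p did the opposite. None of these passed the threshold within either month alone. At 6 mo and 12 mo the edgeR adjusted p was 0.101 and 0.233 for let-7g-5p and 0.284 and 0.157 for miR-423-5p. For miR-140-3p it was 0.368 and 0.157. The test that follows is of a change in the difference, not of its sign in either month. In a test of the change itself, the DU minus Ta difference at 12 mo minus that at 6 mo, edgeR called 5 of 293 miRNAs at a Benjamini-Hochberg adjusted p under 0.05 (1.71%), and DESeq2 called 35 (11.9%). By edgeR the difference became more positive for 4 of them (1.37%), miR-423-5p, miR-140-3p, miR-378b and miR-6328, and more negative for 1 (0.341%), let-7g-5p. Over all miRNAs tested the median of this quantity was 1.03 (log2), or 0.83 with DESeq2's size factors, so each value below is to be read against that.

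let-7g-5p at 6 mo stood at 34239, 10041, 61725 and 117392 CPM (read counts scaled to a common library size with TMM factors) in the DU libraries, against 6918, 2421 and 10363 CPM in the Ta libraries. At 12 mo it stood at 13920, 9338, 5600 and 3090 CPM in the DU libraries, against 15344, 54277, 21589 and 10820 CPM in the Ta libraries. In the earlier month 3 of 4 DU libraries exceeded every Ta library and the lowest, replicate 2, lay among them. In the later month 3 of 4 DU libraries lay below every Ta library and DU replicate 1 overlapped. The mean was 55849 ± 46142 CPM in DU and 6567 ± 3983 CPM in Ta at 6 mo (SD, n = 4 and 3), and 7987 ± 4715 CPM in DU and 25508 ± 19681 CPM in Ta at 12 mo (SD, n = 4 each). The difference of the 2 months was -4.76 ± 1.15 (log2 ± SE, edgeR adjusted p = 0.0148), and it lay between -5.75 and -3.68 when single libraries were left out. The call was lost without 4 of the 15 libraries: Ta replicate 2 of 12 mo (adjusted p = 0.111), DU replicate 4 of 12 mo (0.0571), Ta replicate 2 of 6 mo (0.101) and DU replicate 4 of 6 mo (0.118, all edgeR).

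miR-423-5p, which is made from the same hairpin as miR-423-3p, moved the other way. Its level at 6 mo was 1772, 9441, 6407 and 1344 CPM in the DU libraries, against 12450, 30818 and 7411 CPM in the Ta libraries. The 12 mo values were 6173, 9429, 6247 and 11143 CPM in the DU libraries, against 2778, 534, 1131 and 2512 CPM in the Ta libraries. At 6 mo 1 DU library, replicate 2, overlapped with Ta, while at 12 mo all 4 DU libraries were above all 4 Ta libraries. The mean was 0.281 times that of Ta at 6 mo and 4.74 times at 12 mo, and the difference of the months was 4.08 ± 0.99 (log2 ± SE, edgeR adjusted p = 0.0148). This call was lost for 6 of the 15 libraries left out singly, with an edgeR adjusted p of 0.0583 to 0.146: without Ta replicate 2 or 3 or DU replicate 1 of 12 mo, and without Ta replicate 2 or DU replicate 3 or 4 of 6 mo. It was also lost with no filter on low counts (0.0592).

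miR-140-3p is a strand of a miRNA known for its role in cartilage and is also found in blood. It had 1423, 1898, 1276 and 513 CPM in DU sera at 6 mo, against 3951, 3566 and 3713 CPM in Ta sera. At 12 mo it had 3707, 2768, 3048 and 2679 CPM in DU sera, against 952, 289, 772 and 1381 CPM in Ta sera. The groups did not overlap in either month, and the order of the 2 metals was opposite. The difference of the months was 3.40 ± 0.97 (log2 ± SE, edgeR adjusted p = 0.0464). Leaving out single libraries ended this call for 12 of 15 (adjusted p up to 0.146), the exceptions being Ta replicate 4 of 12 mo and DU replicates 1 and 2 of 6 mo, while the log2 value stayed between 2.74 and 3.94. It also ended with DESeq2's size factors in edgeR (0.0640) and with no filter on low counts (0.211).

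**Figure D2:**
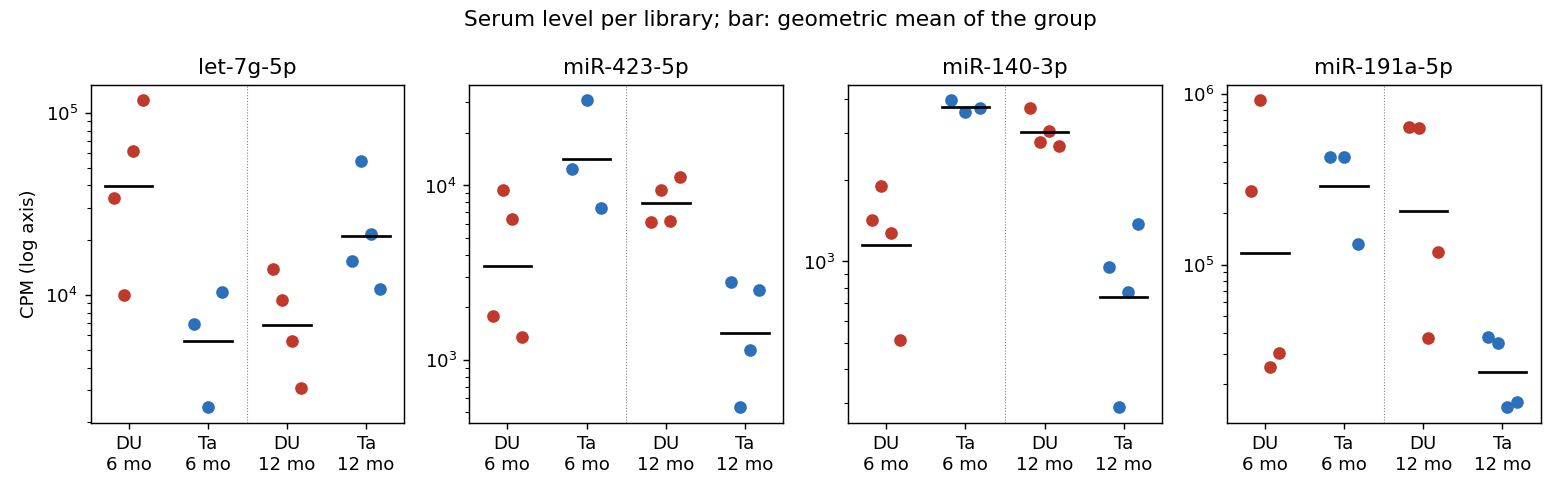
CPM (log axis) of let-7g-5p, miR-423-5p, miR-140-3p and miR-191a-5p in every DU (red) and Ta (blue) library of 6 mo and 12 mo; black bars are geometric means of the group. let-7g-5p lay mostly above Ta in DU at 6 mo and below it at 12 mo, and the other 3 miRNAs lay above Ta in all or nearly all DU libraries at 12 mo.

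The other 2 calls rest on a handful of counts. miR-378b, a relative of the muscle and fat miRNA miR-378a, had 3, 2, 0 and 0 counts in DU libraries at 6 mo, against 0, 16 and 0 in Ta libraries. At 12 mo it had 0, 58, 6 and 64 counts in DU libraries, against 0 in all 4 Ta libraries. Without Ta replicate 2 of 6 mo, which held those 16 counts, the edgeR adjusted p of the change was 1.00 in place of 0.0423, and the call was lost in 10 of 15 cases in all; it held without DU replicate 3 of 12 mo, Ta replicates 1 and 3 of 6 mo and DU replicates 1 and 2 of 6 mo. miR-6328 had 0 counts in all 4 DU libraries at 6 mo, against 31, 33 and 0 in Ta libraries. At 12 mo the counts were 0, 10, 4 and 0 in DU libraries, against 0 in every Ta library. Its call (edgeR adjusted p = 0.0464) was lost when any 1 of 14 libraries was left out, the exception being Ta replicate 3 of 6 mo (0.0498). Next in the order of p on the negative side, and short of the threshold, were the liver and gut miRNA miR-194-5p (adjusted p = 0.107), let-7a-5p (0.107) and miR-29c-5p (0.119, all edgeR). miR-29c-5p was seen in 1 DU library of 6 mo (158 CPM) and 1 Ta library of 12 mo (162 CPM) and in no other of the 15.

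Set among all the implanted metals, DU and Ta stood at or next to opposite ends of the order of mean log2 CPM in both months for let-7g-5p, miR-423-5p and miR-140-3p. These had been called for the change between months. For let-7g-5p at 6 mo DU ranked 1 and Ta ranked 9 of 9 metals, and at 12 mo DU ranked 8 and Ta 1 of 8. For miR-423-5p DU ranked 9 and Ta 1 at 6 mo, and DU 1 and Ta 8 at 12 mo. For miR-140-3p DU ranked 8 and Ta 1 at 6 mo, and DU 1 and Ta 8 at 12 mo. For the called miR-378b the order was less extreme, with DU 9 and Ta 3 of 9 at 6 mo and DU 3 and Ta 7 of 8 at 12 mo, and for miR-191a-5p DU ranked 7 and Ta 1 at 6 mo and DU 2 and Ta 8 at 12 mo. The first neighbours in these orders can differ by less than their spread: let-7g-5p at 6 mo averaged 15.28 ± 1.51 in DU and in W, next in order, 14.84 ± 0.63 (log2 CPM ± SD, n = 4 and 3).

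Since a shift between months in either metal would give the same change, DU and Ta were each also compared with the mean of the 6 other metals sampled in both months (W, Co, Fe, Cu, Al and Pb; 47 libraries). These comparisons were added after the data had been seen, and they share the 47 libraries, so their values are only set side by side. The change of let-7g-5p from 6 mo to 12 mo relative to the 6 metals was -2.29 ± 0.81 in DU and 2.47 ± 0.90 in Ta (log2 ± SE, edgeR adjusted p = 0.583 and 0.226). For miR-423-5p it was 1.00 ± 0.72 in DU and -3.08 ± 0.78 in Ta (adjusted p = 1.00 and 0.0515, edgeR), and for miR-140-3p 1.20 ± 0.71 in DU and -2.19 ± 0.75 in Ta (adjusted p = 1.00 and 0.226, edgeR). For this change 0 of 293 miRNAs passed the edgeR threshold in DU (0%) and 0 of 293 in Ta (0%). At an unadjusted p under 0.05 there were 14 for DU (4.78%) and 22 for Ta (7.51%), and DESeq2 called 25 for DU (8.53%) and 32 for Ta (10.9%). Within 6 mo edgeR called 9 for DU (3.07%) and 24 for Ta (8.19%), all higher than in the 6 metals. DESeq2 called 37 for DU (12.6%) and 11 for Ta (3.75%) there, in both directions. Within 12 mo edgeR called 1 for DU (0.341%) and 2 for Ta (0.683%), all higher. DESeq2 called 2 for DU (0.683%) and 23 for Ta (7.85%) at 12 mo. Whether the difference between DU and Ta in let-7g-5p, miR-423-5p and miR-140-3p arose in the DU or in the Ta animals was not resolved by these tests.

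**Figure D3:**
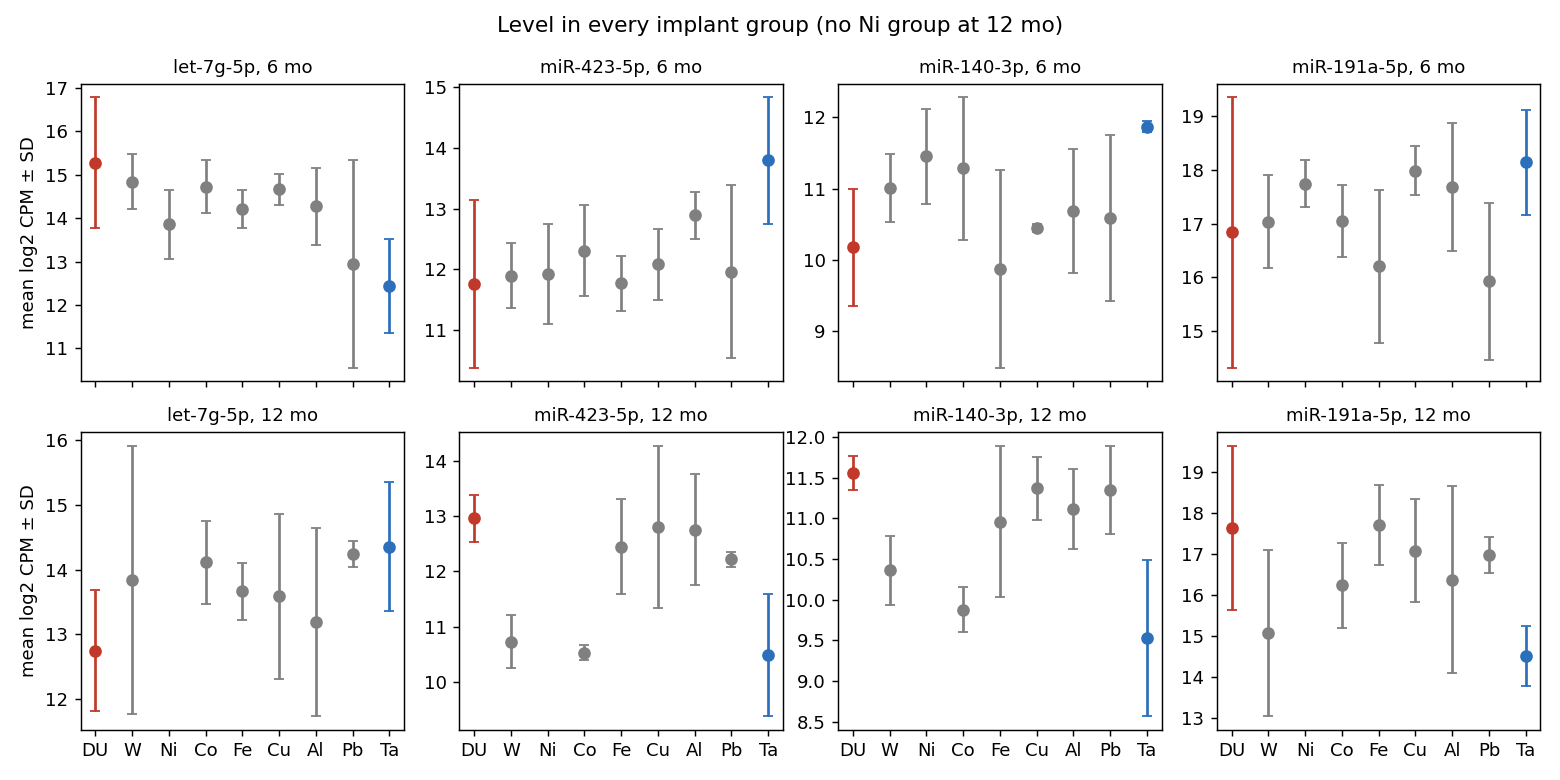
Mean log2 CPM ± SD of 4 miRNAs in every implant group at 6 mo (upper row) and 12 mo (lower row), with DU (red) at the left and Ta (blue) at the right of each panel and 3 or 4 libraries per group. Ta lies at an end of the order in all 8 panels; the W group at 12 mo includes a library of 3789 counts.

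Opposite signs in the 2 months were not limited to the called miRNAs. Among the 50 most abundant miRNAs, 20 were below Ta at 6 mo and above it at 12 mo. Another 15 were above at 6 mo and below at 12 mo, and 15 kept their sign. Among the 100 most abundant these counts were 39, 22 and 39. Over all 293 they were 114, 31 and 107, and some miRNAs had no difference in a month. The median difference over all miRNAs tested also rose, from -0.97 at 6 mo to 0.02 at 12 mo. The counts of miRNAs below and then above Ta are to be read against that shift. The mean log2 differences of the 2 months correlated at r = -0.61 over the 50 most abundant miRNAs (Spearman rho = -0.61). The correlation was weaker over more miRNAs, at -0.44 over the 100 most abundant and at -0.18 over all 293. These values describe the libraries only, because all miRNAs of a library share its depth, its scaling and its composition.

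**Figure D4:**
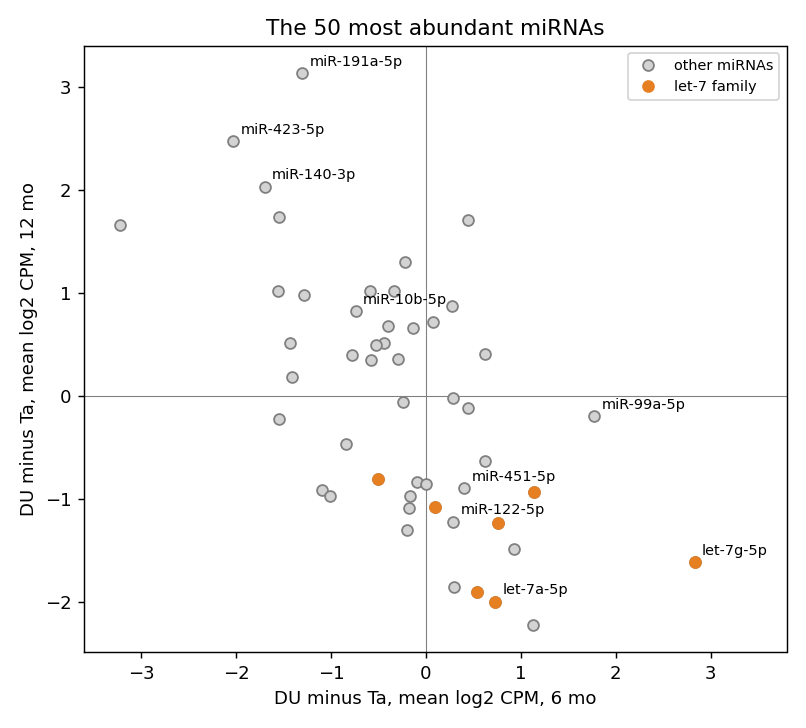
DU minus Ta difference in mean log2 CPM at 6 mo (x) and 12 mo (y) for the 50 most abundant miRNAs, 1 point each, with let-7 family members in orange. Points fall from upper left (miR-191a-5p, miR-423-5p, miR-140-3p) to lower right (let-7g-5p).

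At 12 mo alone, 1 of 224 miRNAs was called (0.446%), miR-378b, with counts of 58, 6 and 64 in 3 of 4 DU libraries and 0 in Ta. Those counts correspond to 147, 30.3 and 506 CPM, and the edgeR adjusted p was 0.0377. Presence at 12 mo was not particular to DU. miR-378b was found in all 4 libraries of Al, Cu, Pb and Fe, at means of 56.4, 51.0, 78.2 and 33.6 CPM. It was found in 2 of 4 Co libraries and, like Ta, in 0 of 4 W libraries. The call was lost without Ta replicate 2 (0.0748), Ta replicate 3 (0.136) or DU replicate 2 (0.0543). At an unadjusted p under 0.05, 25 miRNAs were higher in DU (11.2%) and 17 lower (7.59%). The groups did not overlap for 7 miRNAs that were higher (3.12%) and 9 that were lower (4.02%). By DESeq2 the count was higher, at 19 of 224 (8.48%).

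Scaling mattered in this month. The median difference over all miRNAs was -0.20 (log2) with TMM factors. It was 0.13 with DESeq2's size factors used in edgeR, and 0.31 when a W library of 3789 counts, which enters only the filter, the shared spread and the scaling, was left out. Without that W library 6 miRNAs rose in DU by edgeR: miR-378b, miR-140-3p, miR-191a-5p, miR-423-5p, miR-423-3p and miR-99b-5p. Their log2 values, from 2.18 to 10.02, are to be read against that median of 0.31.

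Among the miRNAs that stood higher in DU at 12 mo, miR-191a-5p had the largest difference in CPM. It stood at 639796, 633581, 37043 and 118915 CPM in DU sera, against 37712, 34885, 14603 and 15674 CPM in Ta sera. Replicates 1, 2 and 4 of DU were above every Ta library, and DU replicate 3 lay just below the highest of them. The log2 difference was 3.61 ± 1.01 (edgeR adjusted p = 0.114), and without the W library it was 4.23 (adjusted p = 0.00778). As a share of counts miR-191a-5p averaged 22.3% ± 18.4 in DU and 2.72% ± 1.19 in Ta (SD, n = 4 each), with p = 0.0857 by an exact two-sided permutation test (0.457 adjusted). At 6 mo the DU libraries spread from 24970 to 915517 CPM, around the Ta range of 131105 to 428991 CPM.

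The 2 arms of the miR-423 hairpin stood on the same side at 12 mo. miR-423-3p had 750, 1200, 2325 and 1407 CPM in DU, against 332, 64.5, 708 and 486 CPM in Ta, with no overlap (log2 1.72 ± 0.64, edgeR adjusted p = 0.227). Also without overlap was miR-877, a miRNA spliced out as a short intron, with 314, 218, 91.0 and 229 CPM in DU, against 28.6, 0, 0 and 24.1 CPM in Ta (3.82 ± 1.40, adjusted p = 0.227). miR-378a-3p, the abundant member of the miR-378 family, had 941, 7435, 5777 and 31785 CPM in DU, against 4144, 1117, 1168 and 1913 CPM in Ta. The DU library with the lowest level, replicate 1, is also the one without miR-378b, and reads of the 2 relatives could have been counted to each other.

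Lower in DU at 12 mo, with the smallest p in that direction, were miR-194-5p, let-7i-5p, let-7a-5p, miR-144-3p, miR-375-3p and miR-223-3p, none of which passed the threshold (edgeR adjusted p = 0.227 each). let-7a-5p had 14448, 8999, 20793 and 2023 CPM in DU, against 28538, 39699, 27894 and 43350 CPM in Ta, and the groups did not overlap. let-7i-5p had 1747, 1437, 4625 and 790 CPM in DU, against 19202, 4087, 4887 and 4598 CPM in Ta, and overlapped through DU replicate 3. miR-223-3p, which is made in granulocytes and other myeloid cells, had 210, 215, 298 and 47.4 CPM in DU, against 254, 1278, 1252 and 235 CPM in Ta. DU replicate 3 exceeded 2 of the Ta libraries. miR-375-3p, a miRNA of pancreatic islets and gut, had 324, 509, 839 and 205 CPM in DU, against 672, 2032, 1551 and 1579 CPM in Ta.

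At 6 mo, 0 of 272 miRNAs were called by edgeR (0%), with 2 higher in DU (0.735%) and 41 lower (15.1%) at an unadjusted p under 0.05. DESeq2 called 20 (7.35%). Of the miRNAs whose groups did not overlap 1 was higher (0.368%) and 20 were lower (7.35%). The miRNA that was higher was miR-99a-5p, of the vessel-associated miR-99 and miR-100 family. It stood at 39346, 45446, 18607 and 36743 CPM in DU, against 13011, 8479 and 8316 CPM in Ta (log2 1.98 ± 0.80, edgeR adjusted p = 0.284). At 12 mo miR-99a-5p had 57733, 36352, 36583 and 58197 CPM in DU, against 102065, 90588, 22757 and 36436 CPM in Ta, and the groups overlapped.

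On the higher side at 6 mo the smallest p belonged to let-7g-5p, with a log2 difference of 3.44 ± 0.95 (edgeR adjusted p = 0.101), and let-7d-5p followed its direction at 1.78 ± 0.95 (0.342). let-7d-5p had 2066, 1281, 6970 and 7988 CPM in DU, against 2138, 1145 and 1605 CPM in Ta, so that DU replicates 3 and 4 stood above Ta and the other two did not. The remaining miRNAs of smallest p on the higher side were miR-34c-5p, described with the average, and miR-196a-5p and miR-30c-2-3p, each found in DU replicate 1 alone at 95.9 and 56.3 CPM. On the lower side miR-455-3p, a cartilage miRNA, miR-141-3p, of the epithelial miR-200 family, and miR-130b-5p were each found in 2 of 3 Ta libraries and 0 of 4 DU libraries (edgeR adjusted p = 0.284 each). miR-423-5p was lower by a log2 difference of -1.91 ± 0.77 (0.284).

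Of the 20 that were lower without overlap at 6 mo, 7 were found in all 3 Ta and none of the 4 DU libraries: miR-503-5p, miR-139-5p, miR-139-3p, miR-532-5p, miR-532-3p, miR-200c-3p and miR-760-3p. These 7 were out of 272 tested at 6 mo. None showed the opposite pattern, and 0 did so in either direction at 12 mo. Of the 272, 52 were found in some Ta and no DU library of 6 mo, and 12 in some DU and no Ta library. miR-503-5p, from an X-linked cluster tied to cell cycle arrest, had 0 CPM in all 4 DU libraries, against 130, 277 and 534 CPM in the Ta libraries. Its edgeR adjusted p was 0.101. The absence was not particular to DU. At 6 mo miR-503-5p was also at 0 in all 4 Fe libraries and found in 1 of 4 Pb and 2 of 4 Co libraries. It was found in 2 of 3 W, 3 of 4 Al and all 4 Cu and Ni libraries, and Ta ranked 1 of 9 metals. At 12 mo miR-503-5p was present in 2 of 4 DU and 2 of 4 Ta libraries, at 231, 70.9, 0 and 0 CPM in DU, against 0, 0, 426 and 169 CPM in Ta. It was at 0 in all 4 Al libraries of 12 mo. miR-139-5p, an miRNA often lowered in tumours, was at 0 in DU at 6 mo, against 29.1, 8.21 and 109 CPM in Ta (adjusted p = 0.284, edgeR). At 12 mo it was found in 2 of 4 DU and 4 of 4 Ta libraries. The DU libraries of 6 mo detected fewer miRNAs on average, as given above, and the part of this in the 7 absences was not tested. DU replicates 1 and 2 of 6 mo, with 3921771 and 6406599 counts, detected 179 and 155 miRNAs, against 168 to 223 in the Ta libraries.

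Averaged over the 2 months, 0 of 293 miRNAs were called (0%), with 8 higher in DU (2.73%) and 29 lower (9.9%) at an unadjusted p under 0.05; DESeq2 called 22 (7.51%). The smallest edgeR adjusted p values were 0.102 for miR-503-5p and miR-139-5p, both below Ta. On the higher side the smallest p belonged to miR-34c-5p, which p53 induces after DNA damage. It had 26.0, 52.3, 0 and 0 CPM in DU at 6 mo, against 0 in all 3 Ta libraries, and 0, 0, 50.5 and 134 CPM in DU at 12 mo, against 0 in all 4 Ta libraries. It was thus seen in 4 of 8 DU and 0 of 7 Ta libraries (edgeR adjusted p = 0.223). miR-34a-5p, which has the same seed and is also p53-induced, was found in 1 DU library of 12 mo (7.59 CPM), against 1 Ta library of 6 mo (18.8 CPM) and 1 of 12 mo (25.2 CPM). The other strand of the miR-34c hairpin, miR-34c-3p, was lower in DU at 6 mo (log2 -6.81 ± 3.09, edgeR adjusted p = 0.284). In mean log2 CPM miR-34c-3p differed from Ta by -1.38 at 6 mo and 0 at 12 mo, and miR-34b-3p by 0 and -1.10. miR-191a-5p averaged a log2 difference of 1.86 ± 0.64 (edgeR adjusted p = 0.223), and miR-99b-5p 1.43 ± 0.57 (0.238). The remaining miRNAs named by the smallest p on the higher side, miR-3074, miR-26b-3p and miR-674-5p, were found in 2 or 3 of 8 DU libraries and in 0 of 7 Ta libraries, at no more than 61.7 CPM. On the lower side miR-106b-5p, miR-130b-5p, miR-455-3p and miR-32-5p (edgeR adjusted p = 0.223 each) were found in 0 or 1 of 8 DU libraries, against 2 to 4 of 7 Ta libraries.

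Against the mean of the 6 other metals over both months DU had 0 of 293 calls (0%), with 26 higher (8.87%) and 1 lower (0.341%) at an unadjusted p under 0.05. The calls of DESeq2 leaned the other way, with 6 higher (2.05%) and 13 lower (4.44%). The 4 of smallest p on the higher side, miR-16-3p, miR-184, miR-146b-3p and miR-490-3p, had an edgeR adjusted p of 0.0591 each. miR-16-3p rested on DU replicate 3 of 6 mo, at 1015 CPM, without which its log2 difference was -1.06 in place of 4.43. Of the 4, only miR-184, which is abundant in lens and cornea, was seen in most DU libraries. Its level was 137, 2101, 0 and 0 CPM in DU at 6 mo, against 981, 194 and 891 CPM in Ta. At 12 mo it was 28.1, 906, 1754 and 2142 CPM in DU, against 34.3, 0, 0 and 944 CPM in Ta. miR-191a-5p was 1.19 ± 0.41 (log2 ± SE) above the 6 metals (adjusted p = 0.147, edgeR). On the lower side miR-141-3p was at -3.36 (0.338), and miR-222-3p, miR-21-5p and miR-30d-5p at -1.90, -0.60 and -0.60 (edgeR adjusted p = 0.792 each).

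By family, let-7 stood above Ta at 6 mo in nearly all members and below Ta at 12 mo in all. Of its 9 members 8 had a mean log2 CPM above Ta at 6 mo and 0 of 9 at 12 mo, with a median difference of 0.54 and -1.24, against -0.97 and 0.02 over all miRNAs tested. In the fitted differences 8 were above Ta at 6 mo with TMM factors and all 9 with DESeq2's size factors, and at 12 mo all 9 were below Ta with either and also without the W library of few counts. Only let-7g-5p was called for the change between months. At 12 mo 4 of the 9 were lower at an unadjusted p under 0.05, against 7.59% of all miRNAs, and let-7a-5p and miR-98-5p were lower without overlap, against 4.02% of all. The summed level of the family at 6 mo was 79890, 53558, 180332 and 324625 CPM in DU, against 63318, 56012 and 82852 CPM in Ta, with overlap. The 12 mo sums were 61980, 43384, 119336 and 36006 CPM in DU, against 139102, 163403, 124882 and 163970 CPM in Ta, without overlap.

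The red-cell list stood lower in DU at 12 mo. Its summed level over 6 miRNAs (miR-451-5p, miR-144-3p, miR-144-5p, miR-16-5p, miR-92a-3p and miR-25-3p) was 4062 to 13252 CPM in DU and 14687 to 20015 CPM in Ta, and 5 of 6 members had a lower mean in DU. At 6 mo it was 9472 to 51381 CPM in DU and 19630 to 27531 CPM in Ta, with overlap. The 12 mo means were 9598 ± 3937 CPM in DU and 17334 ± 2193 CPM in Ta (SD, n = 4 each; exact two-sided permutation p = 0.0286, 0.343 adjusted over 12 tests). That unadjusted p is the smallest that this test, with its 70 permutations, can give. With the mean log2 CPM of miR-451-5p, miR-144-3p and miR-16-5p as a covariate, the change of let-7g-5p between months was -4.76 (edgeR adjusted p = 0.0212), that of miR-423-5p 3.86 (0.0254) and that of miR-140-3p 3.53 (0.0326). The call of miR-378b at 12 mo was lost with the covariate (adjusted p = 0.0579, edgeR), at a log2 value of 9.52 in place of 9.54. At 12 mo the covariate gave 3.78 for miR-191a-5p, 1.83 for miR-140-3p and 1.87 for miR-423-5p (edgeR adjusted p = 0.0579, 0.0579 and 0.140). Without it these were 3.61, 1.72 and 2.03 (0.114, 0.157 and 0.157). The platelet list, of which miR-191a-5p is a member, summed to 698209, 709574, 85832 and 193898 CPM in DU at 12 mo, against 90050, 67999, 60542 and 92253 CPM in Ta. Over its 7 members the median difference was -1.30 at 6 mo and -0.12 at 12 mo, with 3 above and 4 below Ta at 12 mo. The sign depends on the measure: the fitted median was 0.10 at 6 mo and -0.36 at 12 mo with TMM factors, 0.18 and 0.09 with DESeq2's size factors, and 0.26 at 12 mo without the W library. The covariate fits are given as values only. The part of red cells or platelets in the 12 mo levels of the let-7 family and the other miRNAs was not tested.

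Members of the bone and cartilage list differed in direction. The list's median difference in mean log2 CPM was -1.38 at 6 mo and 1.48 at 12 mo over 6 members. Beside miR-140-3p, miR-214-3p and miR-199a-5p were below Ta at 6 mo and above it at 12 mo in mean log2 CPM, while miR-199a-3p did the opposite and miR-455-3p was below Ta in both months (-2.98 and -0.69). miR-214-3p had 292, 218, 0 and 0 CPM in DU at 6 mo, against 292, 323 and 224 CPM in Ta, and 357, 362, 101 and 387 CPM in DU at 12 mo, against 48.6, 0, 142 and 172 CPM in Ta. The list's sum, which contains the called miR-140-3p, did not overlap between the groups in either month: it was 1559 to 3039 CPM in DU and 4200 to 4697 CPM in Ta at 6 mo, and 3846 to 5058 CPM in DU and 1155 to 2843 CPM in Ta at 12 mo. Of this, miR-140-3p made up 513 to 1898 CPM in DU and 3566 to 3951 CPM in Ta at 6 mo. At 12 mo it made up 2679 to 3707 CPM in DU and 289 to 1381 CPM in Ta. The separation of the sum is therefore not a result apart from that of miR-140-3p.

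In the kidney list, 0 of 14 members tested had an unadjusted p under 0.05 at 6 mo and 3 of 13 did at 12 mo, all lower in DU. Of all miRNAs 15.1% were lower by that measure at 6 mo and 7.59% at 12 mo. These were members of the miR-30 family of epithelium and kidney tubules. miR-30c-5p had 944, 1038, 566 and 759 CPM in DU at 12 mo, against 2029, 4922, 2254 and 1143 CPM in Ta, without overlap (log2 -1.85 ± 0.80, edgeR adjusted p = 0.233). miR-30a-5p had 659, 1534, 1809 and 2363 CPM in DU, against 6464, 2869, 3082 and 2735 CPM in Ta, also without overlap (-1.51 ± 0.73, adjusted p = 0.265). The third was miR-30e-5p (-2.08 ± 0.85, adjusted p = 0.227). Of the abundant kidney and vessel miRNAs, miR-10b-5p had a log2 difference of 1.08 ± 0.72 and miR-10a-5p of 0.59 ± 0.83 at 12 mo (edgeR adjusted p = 0.442 and 0.752), so the list's members did not share a direction.

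The X-linked cluster of miR-322, miR-503, miR-351, miR-542 and miR-450a had 0 members above and 9 below Ta in mean log2 CPM at 6 mo, a median of -2.36, and 5 above and 4 below at 12 mo, a median of 0.26. In the fitted differences at 6 mo, where 8 members were tested, 4 were above and 4 below, with a median of -0.19. At 12 mo 3 of 8 members tested had an unadjusted p under 0.05, all higher in DU, against 11.2% of all miRNAs. One of these, miR-351-3p, had 3560, 1083, 970 and 2434 CPM in DU, against 492, 252, 0 and 596 CPM in Ta, without overlap (log2 2.41 ± 1.18, edgeR adjusted p = 0.265). The epithelium list also stood low at 6 mo, with a median of -2.65 and 9 of 11 members below Ta, and was at -0.05 at 12 mo, where its fitted median was -0.27, or 0.13 without the W library.

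**Figure D5:**
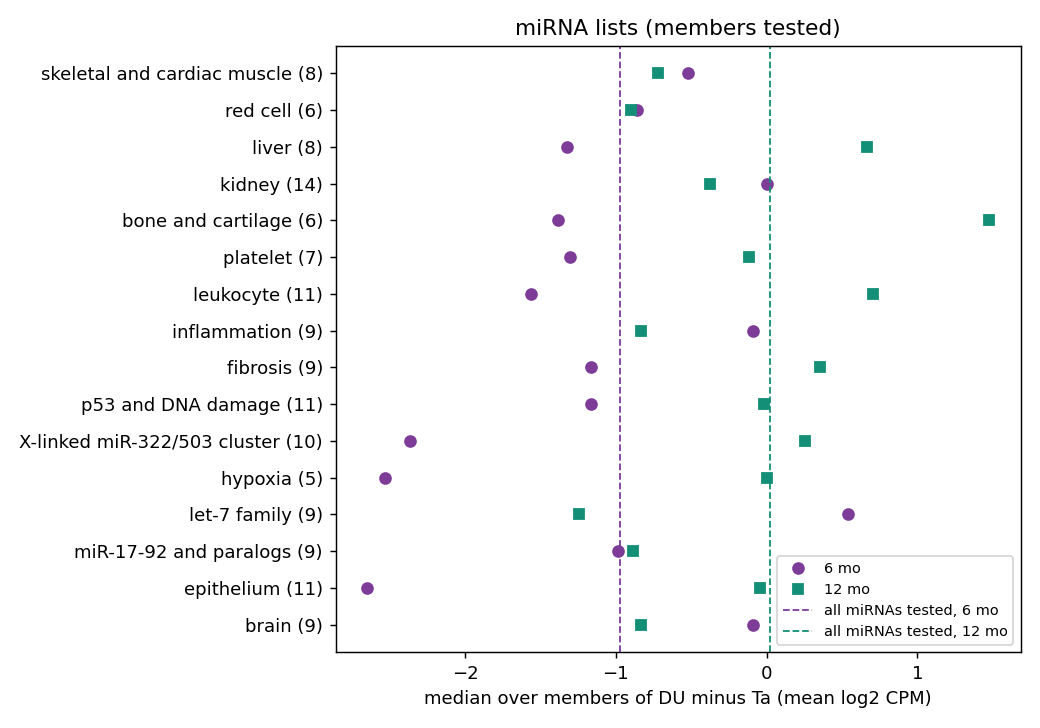
Median over list members of the DU minus Ta difference in mean log2 CPM at 6 mo (circles) and 12 mo (squares) for 16 lists, members tested in parentheses; dashed lines are the medians of all miRNAs tested, -0.97 at 6 mo and 0.02 at 12 mo. The let-7, muscle, red cell, kidney, inflammation and brain lists lie right of the 6 mo line and left of the 12 mo line. Bone and cartilage, liver, leukocytes, fibrosis and the X-linked cluster lie the other way round.

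In the lists for muscle, liver and inflammation miR-378b alone was called by edgeR. Of the muscle miRNAs miR-206-3p had 3580, 385, 6506 and 2264 CPM in DU at 6 mo, against 775, 398 and 2986 CPM in Ta, and 104, 190, 3922 and 332 CPM in DU at 12 mo, against 5670, 2032, 792 and 1351 CPM in Ta. The groups overlapped in both months, and averaged over them the log2 difference was 0.04 ± 0.91 for miR-206-3p and -1.32 ± 1.28 for miR-1-3p (edgeR adjusted p = 1.00 and 0.984). At 12 mo alone it was -3.35 ± 1.59 for miR-1-3p and -5.09 ± 2.41 for miR-133a-3p (edgeR adjusted p = 0.260 each). miR-1-3p then had 51, 82, 298 and 43 counts in DU libraries, against 5451, 974, 0 and 648 in Ta libraries. Of 7 muscle members tested at 12 mo, 2 were lower and 2 higher at an unadjusted p under 0.05, against 7.59% and 11.2% of all miRNAs. The liver miRNA miR-122-5p averaged 0.16 ± 0.60 and miR-192-5p, of liver and kidney, 0.15 ± 0.48 (adjusted p = 1.00 each, edgeR). Among inflammation and DNA damage miRNAs the averages were -0.41 ± 0.49 for miR-21-5p, -0.06 ± 0.63 for miR-146a-5p and -0.55 ± 0.81 for miR-223-3p (edgeR adjusted p = 1.00 each). miR-155-5p was found in 0 of 4 DU and 1 of 3 Ta libraries at 6 mo, and in 2 of 4 DU and 3 of 4 Ta libraries at 12 mo. The hypoxia miRNA miR-210-3p was found in 2 DU libraries of 12 mo (24.8 and 15.8 CPM) and in no Ta library of either month. The red-cell miRNAs averaged -0.22 ± 0.64 for miR-451-5p and -0.66 ± 0.74 for miR-16-5p (adjusted p = 1.00 each, edgeR).

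The medians of the remaining lists are set against -0.97 at 6 mo and 0.02 at 12 mo over all miRNAs. Each pair of values here is the median difference in mean log2 CPM at 6 mo and at 12 mo. It was -0.52 and -0.72 for muscle, -1.32 and 0.67 for liver, 0.00 and -0.38 for kidney, and -0.86 and -0.90 for red cells. Leukocytes had -1.56 and 0.70, inflammation -0.09 and -0.84, fibrosis -1.17 and 0.36, and p53 and DNA damage -1.17 and -0.02. The small hypoxia list had -2.53 and 0.00, the cell cycle cluster miR-17-92 -0.98 and -0.88 (0.17 fitted with DESeq2's size factors at 6 mo), and brain -0.09 and -0.84, the last equal to inflammation because miR-125b-5p is the middle member of both. The medians of the fitted differences with TMM factors, at 6 mo and 12 mo, were 0.00 and -2.46 for muscle and -1.11 and 0.05 for liver. They were 0.05 and -1.26 for kidney, -0.30 and -1.03 for red cells and -0.74 and 0.06 for leukocytes. Inflammation had 0.00 and -0.58, fibrosis -0.75 and 0.14, and p53 and DNA damage -0.20 and -0.42. Hypoxia had -1.68 and -1.14, miR-17-92 -0.0097 and -0.98, and brain -0.40 and -0.81, against -0.38 and -0.20 over all miRNAs. Of the members of these lists, miR-378b of the muscle list was called by edgeR at 12 mo, and edgeR called none of them at 6 mo or in the average; the calls of DESeq2 were not counted by list.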

How the data were processed

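Serum small RNA was measured in 138 libraries, 15 of them used for DU against Ta. Per the labels' protocols, RNA was checked on a Bioanalyzer and libraries were made with the Norgen Small RNA kit and read on a NextSeq instrument. The authors deposited raw counts per miRNA (471 miRNAs, whole numbers, not normalized). Per the submitters' processing notes the build was Rnor_6.0; the aligner, the miRNA annotation and the treatment of reads that match several miRNAs are not given in the sources that were used. Total counts per library ranged from 159861 to 6406599 among the 15, so the level of a miRNA of few counts carries a large counting error.

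Groups were taken from the labelled metal and time. The miRNAs, the lists and the comparison were chosen with earlier results of these data known. edgeR 4.0.16 (R 4.3.3, limma 3.58.1) was run on the counts with TMM factors, filterByExpr (min.count 10, min.total.count 15) and glmQLFit and glmQLFTest, with Benjamini-Hochberg adjustment over all miRNAs tested and a threshold of 0.05. The 6 mo fit held all 34 libraries of that time, the 12 mo fit all 32, and the average and the difference between months all 66, so that groups shared 1 estimate of spread. A standard error is the log2 difference over the square root of F. CPM are counts scaled with the TMM factors of the 66 libraries, and log2 CPM adds a prior count of 2. The fits were tested on simulated data.

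The miRNAs named are the called ones and the 6 of smallest p per direction at 6 mo, at 12 mo and in the average, the 4 of smallest p per direction in the difference between months and against the other metals, a preset set of tissue and stress miRNAs, list members where a list is described, and the 5 most abundant. miR-99a-5p, miR-378a-3p and the 7 miRNAs absent from DU at 6 mo were also named after their values were seen. Alternatives were other size factors, no filter (1 count or more), DESeq2 1.42.0, the replicate number as a block, a red-cell covariate, leaving out a library of under 20000 counts, fitting only the groups compared and leaving out each library. The comparisons of DU and of Ta with the 6 other metals over the months and within each month were added after seeing the data. DU and Ta libraries of the same month that share a replicate number did not deviate together, so the numbers were not used as pairs. That check could not show whether libraries of the same metal at 6 mo and 12 mo came from the same rats. The test of the change between months treated them as independent.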

Additional observations from a re-analysis of the deposited data

Results flagged for a closer look

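Sets of 4 values, each a named miRNA or a library measure in DU at 6 mo, DU at 12 mo or Ta at 12 mo, were checked for a library far from the rest. Of 86 sets, 5 had a gap to the nearest library above Dixon's critical share of the set's range. Chance gives about 1 in 20, which is close to that share, and the sets share libraries. DU replicate 3 of 6 mo stood highest for miR-451-5p (0.893 of the range) and for the summed red-cell list (0.898). DU replicate 1 of 12 mo stood lowest for miR-30d-5p (0.97). Ta replicate 1 of 12 mo stood highest for let-7i-5p (0.884), and Ta replicate 2 of 12 mo for miR-21-5p (0.92).

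The DU minus Ta difference differed between 12 mo and 6 mo, by the test of that change, for 5 miRNAs. The log2 changes were -4.76 for let-7g-5p, 4.08 for miR-423-5p, 3.40 for miR-140-3p, 13.86 for miR-378b and 14.05 for miR-6328. The values for miR-378b and miR-6328 are fitted against groups at or near 0 counts and depend on the prior count.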

How the results depend on the processing

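Groups held 3 or 4 libraries, and leaving out 1 library often changed a call. edgeR called 5 miRNAs for the change between months, and 0 to 6 when single libraries were left out (0 without Ta replicate 2 of 12 mo, Ta replicate 2 of 6 mo or DU replicate 4 of 6 mo). For 12 mo the range was 0 to 6, for DU against the 6 other metals 0 to 8, and for 6 mo and the average 0 throughout. With DESeq2's size factors in edgeR there were 4 calls at 12 mo and 3 for the change between months. With no filter on low counts there were 2 at 6 mo, 7 at 12 mo, 2 in the average and 7 against the other metals. DESeq2 called 20 at 6 mo, 19 at 12 mo, 22 in the average, 35 for the change and 19 against the other metals (6 higher, 13 lower). The red-cell covariate left 0 calls at 12 mo, and leaving out the library of under 20000 counts gave 6. Fitting only the groups compared gave 0 at 12 mo and 2 for the change. Set against the 6 other metals, the change gave 0 calls for DU and 0 for Ta. The cause of these differences was not tested. The replicate block gave 0 calls at 12 mo and 2 for the change, let-7g-5p and miR-423-5p. Its numbers did not pair DU with Ta libraries of the same month (correlations of same-numbered libraries -0.10 to 0.21). With DESeq2's size factors in place of TMM factors the median log2 value of all miRNAs was -0.24 in place of -0.38 at 6 mo, 0.13 in place of -0.20 at 12 mo, -0.0063 in place of -0.18 in the average and 0.83 in place of 1.03 for the change.

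Averages near 0 changed sign under some settings. miR-451-5p was 0.0255 with DESeq2's size factors in edgeR, 0.0256 in DESeq2, and 0.00403 with the covariate. miR-146a-5p was 0.12 with those factors and in DESeq2, 0.080 with the replicate block, 0.00738 without the library of few counts and 0.11 with only the groups compared. With the block miR-206-3p was -0.31 and miR-122-5p -0.019. With the covariate miR-122-5p was -0.11, miR-1-3p 0.80 and miR-16-5p 0.00407. Leaving out single libraries gave -1.81 to 0.17 for miR-1-3p, -1.09 to 0.77 for miR-451-5p, -0.23 to 0.65 for miR-146a-5p, -1.03 to 0.71 for miR-206-3p, -0.43 to 0.56 for miR-122-5p and -0.067 to 0.48 for miR-192-5p, and -1.06 to 4.64 for miR-16-3p against the other metals. The DU minus Ta difference of library values ranged likewise from -0.0513 to 0.132 in log10 total over both months, from -0.122 to 7.86 percentage points for the share of miR-191a-5p over both months, from -12931 to 1039 CPM for the red-cell sum at 6 mo and from -10333 to -3348 CPM over both months.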
